A study of Mus musculus with 8 samples.

Results

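Kainate receptors are ion channels opened by glutamate, and 7 genes make them up here: the 5 channel subunit genes Grik1, Grik2, Grik3, Grik4 and Grik5 and the 2 auxiliary subunit genes Neto1 and Neto2. They were picked by gene symbol, 1 entry per gene, from the 18939 genes of the count table, and all 7 had counts in all 8 libraries. The RNA came from translating ribosome affinity purification (TRAP), in which ribosomes that carry a GFP-tagged ribosomal protein are pulled down and the mRNA bound to them is sequenced. All mice were adults of the genotype OPRM1cre X EGFP-L10a on a C57Bl/6J background, so that Cre recombinase from the mu-opioid receptor gene Oprm1 switched on the EGFP-L10a fusion in cells that express, or once expressed, this receptor. The tissue was a gross dissection aimed at the paraventricular nucleus of the thalamus (PVT), and each library pooled dissections of 2 mice of 1 sex. The 4 morphine libraries came from mice whose drinking water held morphine, up to 0.5 mg/ml, in 0.2% saccharin for 11 days, and the 4 control libraries from mice given 0.2% saccharin alone. Each group had 2 libraries labelled male and 2 labelled female.

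The channel subunits fall into 2 classes. Grik1, Grik2 and Grik3 (proteins GluK1, GluK2 and GluK3) are the low-affinity subunits, which can form working channels without the other class. Grik4 and Grik5 (GluK4 and GluK5) bind kainate with high affinity and need a low-affinity partner to reach the cell surface as a channel. Neto1 and Neto2 are single-pass membrane proteins that bind the channel and change how fast it closes. Kainate receptors sit on both sides of the synapse: before it they tune transmitter release, and after it they carry a slow excitatory current. The PVT is a midline thalamic nucleus of mostly glutamatergic neurons tied to arousal and motivation.

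The subunits' kinship shows at the channel pore. In the proteins translated from the matched transcripts, Grik1 and Grik2 shared 80.1% of aligned residues, Grik2 and Grik3 shared 79.1%, and Grik4 and Grik5 shared 70.6%, whereas pairs across the classes shared between 42.9% and 47.0%. The coding stretches below surround the codon of the pore's glutamine, known as the Q/R site, which adenosine-to-inosine RNA editing can recode to arginine in GluK1 and GluK2. They are shown to set the 5 channel genes side by side at this site. Each run is the coding strand, 5′ to 3′, from GENCODE M21 transcripts on GRCm38, with 30 bases on either side of the glutamine codon, which is in capitals.
Grik1: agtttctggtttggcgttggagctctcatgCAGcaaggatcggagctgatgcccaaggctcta
Grik2: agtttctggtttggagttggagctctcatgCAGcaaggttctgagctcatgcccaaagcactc
Grik3: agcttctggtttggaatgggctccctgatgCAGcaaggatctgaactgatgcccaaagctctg
Grik4: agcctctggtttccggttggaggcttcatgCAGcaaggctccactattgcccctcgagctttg
Grik5: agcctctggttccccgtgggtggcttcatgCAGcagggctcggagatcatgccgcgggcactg

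All 5 genes encode the glutamine as CAG. The capital codon lies at chr16:87940542-87940544 in exon 12 of 17 of Grik1, at chr10:49244329-49244331 in exon 12 of 17 of Grik2 and at chr4:125691207-125691209 in exon 12 of 16 of Grik3. In the other class it lies at chr9:42547623-42547625 in exon 16 of 21 of Grik4 and at chr7:25022497-25022499 in exon 15 of 20 of Grik5. Grik3 is read from the plus strand and the others from the minus strand. Of the 63 bases shown, Grik2 shared 56 with Grik1, 51 with Grik3, 43 with Grik5 and 39 with Grik4. The count table gives reads per transcript and not per base, so the edited share at this codon was not measured here.

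One control library went against its label. Control replicate 5, labelled female, held counts of 4 Y-linked genes at 28.7% to 35.8% of the mean of the male libraries, whereas the 3 other libraries labelled female were at most at 0.0991%. It is written as labelled below, and most values are also given without it. Totals per library ran from 31151106 to 47582947 counts, and the lowest count of any kainate receptor gene in any library was 410 (Grik4), where counting error alone is 4.94%. That error, like every counting error given here, does not cover PCR copies. Of the 10 marker genes of thalamic glutamatergic neurons none was at 0 in any library, and their summed level ran from 2667 to 3405 CPM (counts per 1000000 of the library) in control and from 2037 to 3397 in morphine libraries. Markers listed for cells outside the nucleus had counts as well: the 10 genes of telencephalic pyramidal neurons summed to between 340 and 631 CPM in control and between 508 and 1057 in morphine, and the 13 genes of choroid plexus to between 25.9 and 142 and between 207 and 669. Larger sums came from 2 further lists. The 8 GABAergic neuron markers summed to between 1197 and 1611 CPM in control and between 932 and 1429 in morphine. The 10 oligodendrocyte markers summed to between 131 and 1292 CPM in control and between 607 and 1591 in morphine. The groups did not overlap for choroid plexus and overlapped for the other lists given here.

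The expression of the low-affinity subunit Grik2 was higher in all 4 morphine libraries than in any control library. Grik2 (chr10:49093680-49790161, GRCm38, minus strand) encodes GluK2, the subunit that joins GluK5 in the most common kainate receptor of the brain. Its level was 38.4, 33.9, 34.0 and 39.9 CPM in control replicates 1, 2, 5 and 6, and 50.1, 55.4, 55.8 and 53.1 CPM in morphine replicates 3, 4, 7 and 8. CPM here is taken over the library size after TMM (trimmed mean of M values) scaling. The control libraries spanned 6 CPM and the morphine libraries under 6 CPM, and the gap between the groups was wider than either span, with no overlap. The means were 36.5 ± 3.06 CPM (SD, n = 4) and 53.6 ± 2.63 CPM, a 1.47-fold difference.

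Grik2 passed the test over all genes. Its log2 fold change was 0.55 ± 0.09 (SE), with an adjusted p of 0.0478 in edgeR's quasi-likelihood test, and it ranked 34th by p among the 18939 genes. DESeq2 gave 0.56 with an adjusted p of 1.5e-05, and limma-voom, another test, gave 0.56 with an adjusted p of 0.0566. Of 18 alternative fits, described at the end, the adjusted p passed in 4. The exact two-sided permutation test over the 70 arrangements of the 8 libraries gave p = 0.0286, the smallest value that 4 against 4 allow. Grik2 was the 1 of the 7 genes called (adjusted p under 0.05) by edgeR, where 0.195% of all genes were called, and 0.164% were called with a higher level in morphine. It was also the 1 gene of the 7 whose groups did not overlap, against 3.34% of all genes with every morphine library above every control library. The edgeR call lies close to the threshold: the fold change stayed between 0.50 and 0.58 when any 1 library was left out, but the adjusted p ran from 0.0383 to 0.168 and passed in 1 of those 8 fits, the one without morphine replicate 3. Without control replicate 5 the fold change was 0.50 ± 0.11, with an adjusted p of 0.0999.

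**Figure D1:**
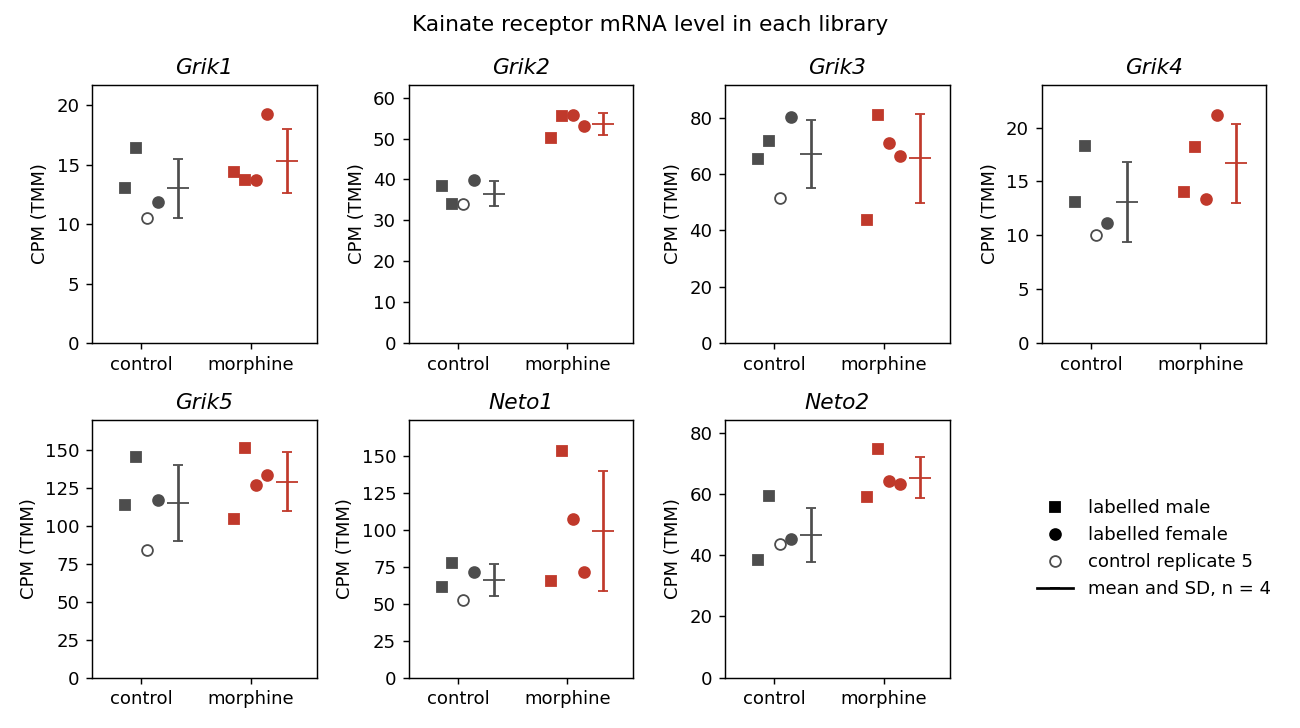
Level of each kainate receptor gene in every library, in TMM-scaled CPM on axes that start at 0. Squares are libraries labelled male and circles libraries labelled female, the open circle is control replicate 5, and the bar beside each group is its mean and SD over 4 libraries. The Grik2 panel has a gap between 39.9 and 50.1 CPM that holds no library, and in the other 6 panels the groups overlap.

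The other low-affinity subunits did not pass the test. Grik1 (chr16:87895901-88290863, minus strand), whose subunit GluK1 is best known from interneurons and sensory neurons, was at 13.0, 16.4, 10.5 and 11.9 CPM in control replicates 1, 2, 5 and 6 and at 14.4, 13.7, 13.7 and 19.3 CPM in morphine replicates 3, 4, 7 and 8. The log2 fold change of Grik1 was 0.24 ± 0.16 (edgeR adjusted p = 0.601), and 0.14 ± 0.17 without control replicate 5. Morphine replicate 8 stood above the 3 other morphine libraries, which lay within 1 CPM of each other, and without it the fold change was 0.11. Without control replicate 2 it was 0.37. Grik3 (chr4:125490259-125714173, plus strand) encodes GluK3, a subunit of low sensitivity to glutamate. Its level was 65.3, 71.7, 51.6 and 80.4 CPM in control and 43.7, 81.1, 71.0 and 66.4 CPM in morphine, in the same order of replicates. Both the lowest and the highest of its 8 values were morphine libraries. The log2 fold change of Grik3 was -0.04 ± 0.18 (edgeR adjusted p = 0.959), and -0.16 ± 0.18 without control replicate 5. Its sign turned without control replicate 6 (0.04) and without morphine replicate 3 (0.12), and it was -0.15 without morphine replicate 4.

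Of the high-affinity class, neither gene passed the test. Grik5 (chr7:25009849-25075694, minus strand), which encodes the widely expressed GluK5, was at 113.6, 145.1, 84.0 and 117.3 CPM in control and at 104.5, 151.2, 127.2 and 133.5 CPM in morphine, again in replicate order. The groups overlapped over most of their range. The log2 fold change of Grik5 was 0.17 ± 0.16 (edgeR adjusted p = 0.678), and it was 0.03 ± 0.14 without control replicate 5, its lowest library, and 0.30 ± 0.15 without control replicate 2, its highest control library. The fits without morphine replicate 4 and morphine replicate 3 gave 0.08 and 0.26 for Grik5. Grik4 (chr9:42518182-42945000, minus strand) encodes GluK4, a subunit with a more restricted expression in the brain. Its level was 13.1, 18.3, 9.97 and 11.1 CPM in control and 14.0, 18.2, 13.4 and 21.2 CPM in morphine. All 4 morphine libraries lay above the control mean of 13.1 CPM, and control replicate 2 lay above 3 of them. The log2 fold change of Grik4 was 0.35 ± 0.21 (edgeR adjusted p = 0.55), with a range of 0.21 to 0.55 when 1 library was left out. It was 0.22 ± 0.21 without control replicate 5, 0.21 without morphine replicate 8 and 0.55 ± 0.18 without control replicate 2 (edgeR adjusted p = 0.144). An exon of Grik4 overlaps the small RNA gene Gm24420 on the same strand, whose reads could not be told apart from it.

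The auxiliary subunits were higher on average in morphine, without passing edgeR's adjusted test. Neto2 (chr8:85636718-85700952, minus strand) gave 38.5, 59.3, 43.8 and 45.3 CPM in control replicates 1, 2, 5 and 6. In morphine replicates 3, 4, 7 and 8 it gave 59.2, 74.8, 64.4 and 63.2 CPM. A single control library, replicate 2 at 59.3 CPM, reached the lowest morphine library at 59.2 CPM, so the groups met at their edges. The log2 fold change of Neto2 was 0.48 ± 0.13, with an adjusted p of 0.174 in edgeR (unadjusted p = 0.00385) and 0.0433 in DESeq2, and the exact permutation p was 0.0571. Without control replicate 5 it was 0.44 ± 0.15, and over all fits that left out 1 library it ran from 0.39 to 0.62.

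Neto1 had the largest spread of the 7 genes within the morphine group. It was at 61.7, 77.3, 52.8 and 71.6 CPM in control and at 65.7, 153.7, 107.3 and 71.2 CPM in morphine, in replicate order. Morphine replicates 4 and 7 lay above every control library, while replicates 3 and 8 lay within the control range. The coefficient of variation was 40.8% in morphine against 16.4% in control. Its log2 fold change of 0.59 ± 0.24 was the largest of the 7 and had an adjusted p of 0.346 in edgeR, an unadjusted p of 0.03 and an exact permutation p of 0.2. Without morphine replicate 4 the value was 0.31, and without control replicate 5 it was 0.49 ± 0.26. A gene antisense to Neto1 (AC113599.1) overlaps its exons, as the miRNA gene Mir8109 overlaps Neto2, and the table is not stated to use the strand.

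Side by side, 6 of the 7 genes had a log2 fold change above 0, with a median of 0.35, where 51.4% of all genes were above 0 with a median of 0.01. By DESeq2, 2 of the 7 genes (Grik2 and Neto2) were called, against 2.63% of all genes. An unadjusted edgeR p under 0.05 was found for 3 of the 7 (Grik2, Neto1 and Neto2), against 12.1% of all genes. That count was 2 without control replicate 5 (Grik2 and Neto2, against 11.1% of all genes), 5 without control replicate 2 and 2 or 3 without any other library. The count over all genes moved as well. It was 2292 with all libraries, 3476 without control replicate 2 and 1433 to 2583 without any other library. With the choroid plexus marker mean, described below, in the model, it was 1 of the 7 genes and 639 of all genes. The libraries were not ordered alike for every gene. Control replicate 5 was the lowest control library for 5 of the 7 genes, with Grik2 and Neto2 as the exceptions. Control replicate 2 was the highest control library for 5 genes and yet the lowest for Grik2. Among the morphine libraries, replicate 3 was the lowest for 5 genes and replicate 4 the highest for 4. Over the 8 libraries the levels of Grik1 and Grik4 went most closely together (Pearson r of log2 CPM = 0.91), and Grik2 and Grik3 had the lowest r of all pairs (0.11). These were 0.87 and -0.13 without control replicate 5, where 6 of the 7 fold changes were still above 0 and their median was 0.22, beside 48.8% of all genes above 0. The coefficients pool 4 control and 4 morphine libraries, so a difference between the groups enters them.

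Marker levels of several tissues differed between the groups, and their values stand beside these results. The mean log2 level of the 10 telencephalic markers was 1.66 higher in morphine than in control (groups overlapped, 9 of 10 genes above 0). The most abundant of these was Slc17a7, the vesicular glutamate transporter of cortical and hippocampal neurons. The same mean over the 13 choroid plexus markers was 1.94 higher and that over the 6 hippocampal markers 1.35 higher, both with no overlap between groups. Of the hippocampal genes 5 of 6 were above 0, over a range of -0.09 to 3.39. The highest of them had means of only 0.0837 CPM in control and 0.917 CPM in morphine. The summed hippocampal level did overlap, at 62.0 to 81.4 CPM in control and 65.9 to 127.3 CPM in morphine. The mean over the 10 thalamic glutamatergic markers was 0.30 lower (groups overlapped, 0 of 10 genes above 0). With control replicate 5 left out the first 3 differences lay between 1.49 and 1.88 and the thalamic one was -0.28, and the same groups overlapped. The mean over the 10 oligodendrocyte markers was 0.90 higher in morphine with 10 of 10 genes above 0, and 1.33 higher without control replicate 5, with overlap in both. The astrocyte mean was 0.57 higher (0.45 without that library), the medial habenula mean 0.17 higher (0.11) and the microglia mean 0.18 higher (-0.09), and the GABAergic means were 5.46 in control and 5.45 in morphine, all with overlap. No defining marker was at 0 in every library, and Kcnj13, a choroid plexus channel, was the only one at 0 in any. With the telencephalic mean as a term in the edgeR model, the log2 fold change of Grik2 was 0.40 ± 0.14 (adjusted p = 0.621), and with the choroid plexus mean it was 0.51 ± 0.17 (adjusted p = 1). The same 2 fits gave 0.34 ± 0.27 and 0.05 ± 0.29 for Grik1, and 0.43 ± 0.36 and 0.06 ± 0.36 for Grik4. They gave 0.08 ± 0.39 and 0.40 ± 0.41 for Neto1, and 0.41 ± 0.23 and 0.27 ± 0.22 for Neto2. Grik3 went to -0.56 ± 0.23 and -0.37 ± 0.28, and Grik5 to -0.03 ± 0.26 and -0.05 ± 0.27. The part of tissue make-up in each fold change cannot be told apart from that of the treatment in these libraries, and a bulk count cannot tell fewer cells of a type from less RNA per cell. Oprm1, whose promoter drives Cre, was at 16.8 to 32.3 CPM in control and 14.0 to 18.4 CPM in morphine (log2 fold change -0.62 ± 0.19, edgeR adjusted p = 0.207). With control replicate 5 (16.8 CPM) left out, the groups did not overlap and the value was -0.79 ± 0.15 (edgeR adjusted p = 0.0736). In males Oprm1 was at -1.05 ± 0.19 (30.8 to 14.9 CPM, edgeR adjusted p = 0.0864) and in females at -0.13 ± 0.19 (19.8 to 18.0 CPM), with an interaction of 0.91 ± 0.27 (edgeR unadjusted p = 0.00524, adjusted p = 1), and of 0.71 ± 0.29 without control replicate 5.

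**Figure D2:**
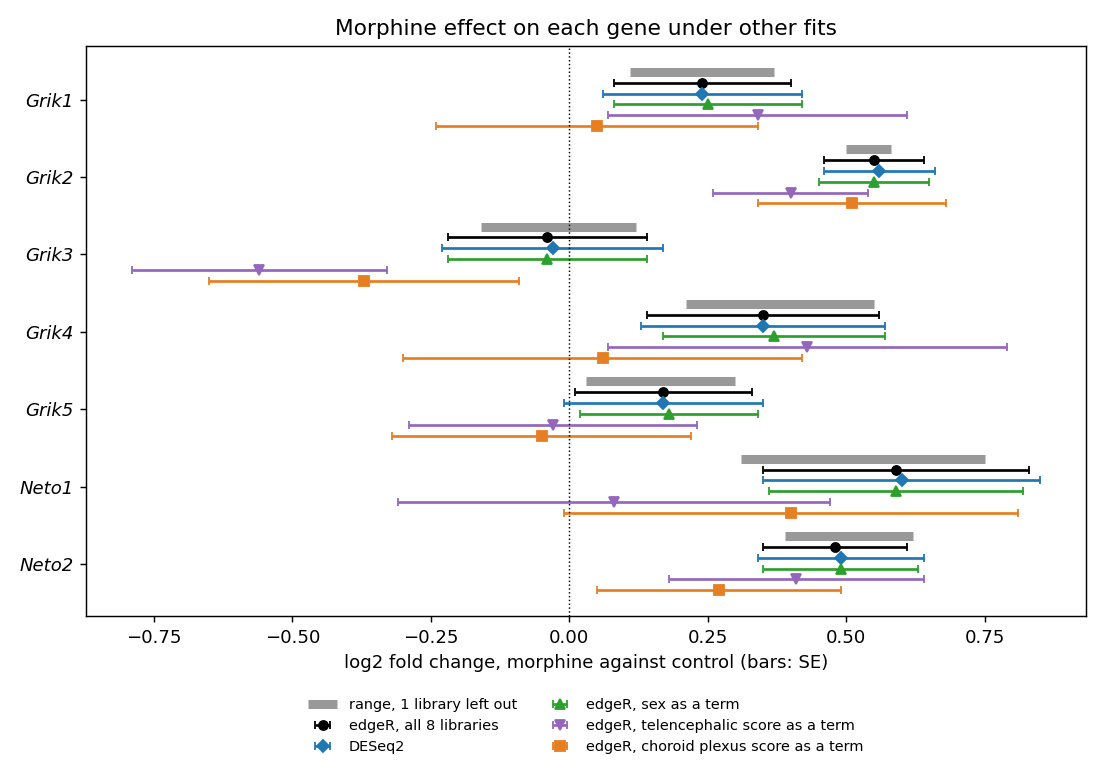
Log2 fold change of each kainate receptor gene, morphine against control, with its SE, in edgeR with all 8 libraries, in DESeq2, and in edgeR with sex or a marker mean added as a term. The grey bar spans the fits that left out 1 library. Every Grik2 value lies between 0.40 and 0.58, Neto1 spans from 0.08 to 0.75, and Grik3 lies on both sides of 0.

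The order of the genes in control was set by CPM per kilobase, since longer transcripts give more fragments. By the length of the matched transcript, Grik5 led at 30.6 ± 6.63 CPM per kb (SD, n = 4), above Grik2 at 11.9 ± 0.992 in all 8 libraries. Neto2 (8.33 ± 1.58), Neto1 (7.89 ± 1.29) and Grik3 (7.49 ± 1.35 CPM per kb) followed within each other's spread, Neto2 being above Neto1 in 2 of 4 control libraries. Grik1 (3.54 ± 0.685) and Grik4 (2.23 ± 0.626 CPM per kb) came last, and Grik1 was above Grik4 in all 8 libraries. The order depends on the gene model. By coding length alone Neto1 (41.2 ± 6.75) and Grik5 (39.1 ± 8.5 CPM per kb) were level, Grik2 (14.0 ± 1.17) came behind Neto2 and Grik3, and Grik1 (4.62) and Grik4 (4.58) did not differ beyond their spread. Grik2 is the least certain: its 2 table entries match models of 3083 and 9427 bases with all but identical counts, and with the longer model its control level is 3.88 ± 0.324 CPM per kb. When control replicate 5 was left out, the order by transcript length was the same, with Grik5 at 33.3 ± 4.58 and Grik2 at 12.1 ± 1.01 CPM per kb (SD, n = 3), and by coding length Grik1 (4.91) and Grik4 (4.95) changed places. In both orders by length Grik5 was above Grik1, Grik2, Grik3 and Grik4, and Grik1 and Grik4 were the 2 lowest genes.

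Shares within the channel pool show the balance of the subunits, and they depend on the Grik2 model. With the model of 3083 bases, Grik5 held 54.5% ± 3.39 (SD, n = 4) of the summed CPM per kb of Grik1 to Grik5 in control and 51.8% ± 1.7 in morphine. Grik2 held 22.4%, 16.9%, 25.3% and 22.2% in control replicates 1, 2, 5 and 6 and 29.4%, 24.3%, 27.5% and 25.0% in morphine replicates 3, 4, 7 and 8. The Grik2 groups overlapped through control replicate 5 alone, and without it the control mean was 20.5% ± 3.13. With the model of 9427 bases Grik2 held 8.33% ± 1.55 in control and 10.6% ± 1.15 in morphine, and Grik5 63.8% ± 2.2 and 63.1% ± 1.29. Grik3 held 12.3% to 15.4% in control and 8.82% to 12.2% in morphine, which did not overlap, with or without control replicate 5. By coding length both ranges reached 25.9%, and with the longer Grik2 model the Grik3 groups overlapped (13.8% to 18.1% and 11.0% to 14.8%). Grik1 and Grik4 kept to small shares of 5.06% to 7.66% and 3.25% to 5.21% over all libraries with the shorter model. Only 6 ratios between members within a library were taken, not every pair, and most had Grik2 as the numerator. The groups did not overlap for 1 of the 6. No share over all gene pairs was computed, and the level of Grik2 on its own did not overlap between the groups. Set against Grik3, Grik2 was 0.61 higher on the log2 scale in morphine than in control, with values of -0.22 to 0.26 in control and 0.32 to 1.06 in morphine (the control mean set to 0). It was 0.70 higher without control replicate 5, still with no overlap. Set against Grik5, Grik2 was 0.37 higher, with overlap, or 0.48 without control replicate 5, with none. The ratios of Grik2 to Neto1 and Neto2 differed by 0.03 and 0.06 (0.10 and 0.05 without that library), and that of Grik4 to Grik1 by 0.11 (0.09), all with overlap. These ratios do not depend on the genes' lengths or on library scaling. The ratio of Neto1 to Neto2 differed by 0.03 between the groups, and by -0.05 without control replicate 5, with overlap in both.

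**Figure D3:**
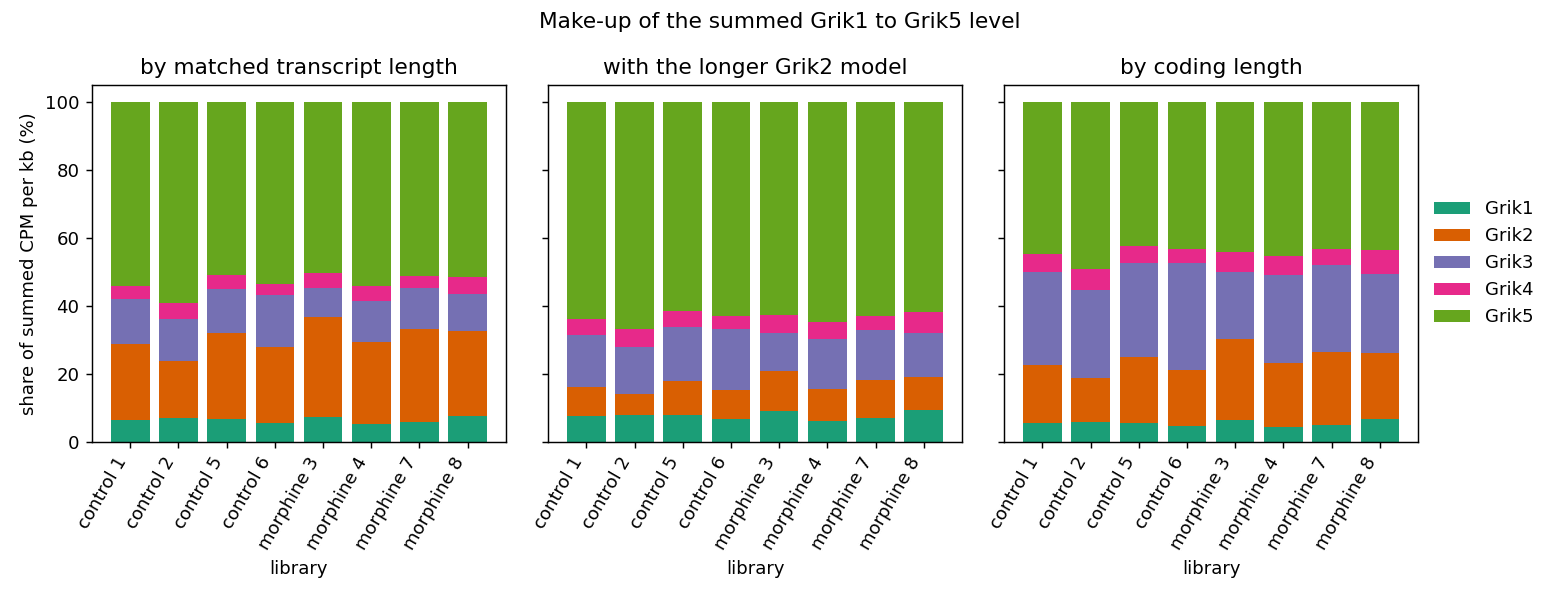
Share of Grik1 to Grik5 in their summed CPM per kilobase in each library, in percent, with the matched transcript length on the left, the longer Grik2 model in the middle and the coding length on the right. Each bar is 1 library and sums to 100%. Grik5 holds the largest share in every bar, 50.3% to 59.2% on the left, and the mean Grik2 share in morphine and control is 26.5% and 21.7% on the left and 10.6% and 8.33% in the middle.

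The sexes were compared with 2 libraries per sex and condition, taken as labelled. Between libraries labelled female and male, with condition in the model, no kainate receptor gene had an unadjusted p under 0.05 in edgeR (lowest 0.261, Grik4), and edgeR called 1 gene in all (0.00528%; DESeq2 26). The female-minus-male log2 differences of the 7 genes lay between -0.23 and 0.04, and between -0.17 and 0.16 without control replicate 5 (lowest unadjusted p = 0.379 in edgeR). For Grik2 the log2 fold change, morphine against control, was 0.55 ± 0.16 in males (36.1 to 52.7 CPM) and 0.56 ± 0.16 in females (37.0 to 54.4 CPM). The interaction for Grik2 was 0.01 ± 0.22, and -0.09 ± 0.27 without control replicate 5. Grik1 and Grik4 had the largest interactions: Grik1 differed by -0.06 ± 0.21 in males and 0.56 ± 0.21 in females, and Grik4 by 0.03 ± 0.25 and 0.71 ± 0.25. Neither interaction passed, with 0.62 ± 0.30 for Grik1 (edgeR unadjusted p = 0.0611) and 0.68 ± 0.36 for Grik4 (unadjusted p = 0.082), both with an adjusted p of 1. Without control replicate 5 they were 0.54 ± 0.35 and 0.60 ± 0.42. Across all genes edgeR called 0% for the interaction, with 325 genes at an unadjusted p under 0.05 and 4 genes called by DESeq2, none of them a kainate receptor gene.

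**Figure D4:**
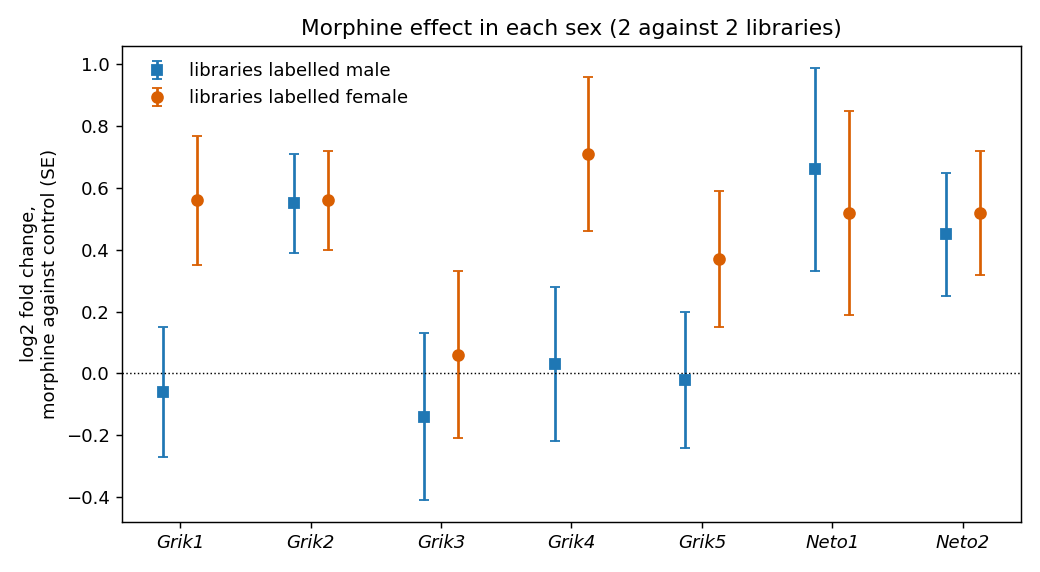
Log2 fold change of each kainate receptor gene, morphine against control, in libraries labelled male (squares) and female (circles), with the SE from edgeR and 2 libraries per sex and condition. The sexes coincide for Grik2 (0.55 and 0.56) and Neto2 (0.45 and 0.52) and are farthest apart for Grik4 (0.03 and 0.71), where the interaction has an SE of 0.36.

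Proteins that edit, anchor and move kainate receptors were looked up as a list of 31 genes, all in the table. None of the 31 was called by edgeR. An unadjusted p under 0.05 was found for 9 of the 31, against 12.1% of all genes, and DESeq2 called 3, all higher in morphine, against 2.63% of all genes. Of the list 13 genes were above 0, and the median log2 fold change was -0.06. Without control replicate 5 edgeR called none either, 8 had an unadjusted p under 0.05 (11.1% of all genes), 11 were above 0 and the median was -0.11. Adarb1, an enzyme that edits the Q/R site, had a log2 fold change of -0.26 ± 0.13 (edgeR adjusted p = 0.451), at 1329 to 1804 CPM in control and 1143 to 1431 CPM in morphine, and of -0.19 ± 0.13 without control replicate 5. Among the scaffolds that bind the subunits' tails, Dlg4 (PSD-95) was at -0.04 ± 0.13, Grip1 at -0.18 ± 0.11 and Pick1 at -0.10 ± 0.09. Klhl24, a regulator of kainate receptors also known as KRIP6, was at -0.18 ± 0.12, and Kif17, a kinesin that carries receptor subunits along dendrites, at -0.08 ± 0.17. Each of these genes overlapped between the groups. When control replicate 5 was left out, Dlg4 was at -0.12 ± 0.14, Grip1 at -0.23 ± 0.12, Pick1 at -0.13 ± 0.10, Klhl24 at -0.18 ± 0.14 and Kif17 at -0.16 ± 0.19.

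The groups did not overlap for 3 of the 31 partners, Pacsin1 (lower in morphine), C1ql2 and Ppp3ca (higher), where 3.34% of all genes did not overlap with morphine higher and 3.21% with morphine lower. Leaving out control replicate 5 gave 4.87% and 5.77% of all genes, and Park2, a ubiquitin ligase gene, joined these 3 partners at -0.37 ± 0.16, from -0.26 ± 0.17 with all libraries. Pacsin1, an endocytic adaptor, was at 684 to 871 CPM in control and at 514 to 675 CPM in morphine. Its log2 fold change was -0.34 ± 0.12, which did not pass (edgeR adjusted p = 0.288), and -0.31 ± 0.13 without control replicate 5. C1ql2, a secreted synaptic organizer that binds kainate receptors, was at 8.28 to 14.1 CPM in control and 15.2 to 38.8 CPM in morphine. Its log2 fold change was 0.98 ± 0.29, with an adjusted p of 0.204 in edgeR and 0.0344 in DESeq2, and 0.90 ± 0.32 without control replicate 5. Its relative C1ql3 was at 0.09 ± 0.16, or -0.04 ± 0.14 without that library. The other 2 genes called by DESeq2 were the kinase gene Prkca (0.80, DESeq2 adjusted p = 0.0297) and the calcineurin gene Ppp3ca (0.74, DESeq2 adjusted p = 0.00268), at 0.79 and 0.80 in edgeR without control replicate 5.

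The other glutamate receptor families give a setting for the kainate receptor values. All 4 AMPA receptor genes had a log2 fold change above 0, from 0.18 (Gria4) to 0.71 (Gria1) with a median of 0.60, none of them called by edgeR, 3 at an unadjusted p under 0.05 (12.1% of all genes) and 3 called by DESeq2 (2.63% of all genes). Of 7 NMDA receptor genes, 4 were above 0, the median was 0.42 and the range -0.23 (Grin2d) to 0.83 (Grin2a, edgeR adjusted p = 0.0609). DESeq2 called Grin2a alone of these, edgeR none, and 3 had an unadjusted p under 0.05, or 1 (Grin2a) without control replicate 5. The 2 delta receptor genes had a median of 0.23, with no unadjusted p under 0.05. The medians without control replicate 5 were 0.55 (AMPA), 0.42 (NMDA) and 0.13 (delta). The kainate receptor median of 0.35 thus lay between those of the delta and the NMDA genes, on the same libraries and without a test of the difference.

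**Figure D5:**
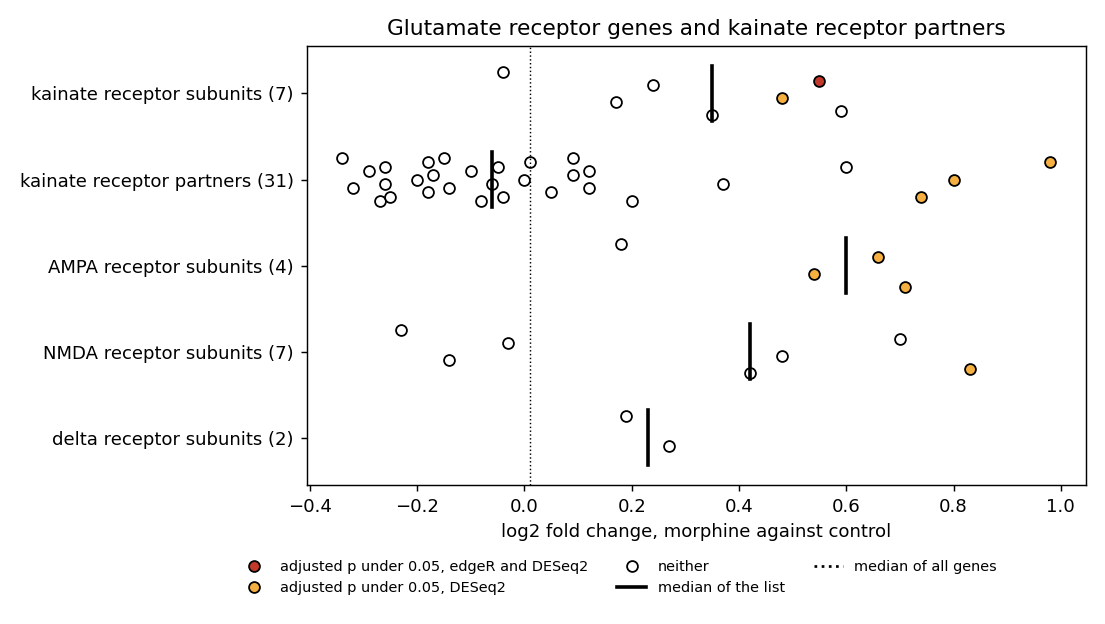
Log2 fold change, morphine against control, of each gene of the kainate receptor, partner, AMPA, NMDA and delta receptor lists, with the number of genes in brackets, the list median as a vertical bar and the median of all genes as a dotted line. Red marks an adjusted p under 0.05 in edgeR and DESeq2 (Grik2), orange in DESeq2 alone, and white in neither. The partner list centres at -0.06 and the AMPA list at 0.60.

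For each kainate receptor gene, the 3 genes with the most similar pattern over the 8 libraries were looked up among the 12988 genes with a mean of at least 1 CPM, by Pearson's r of log2 CPM. Nearest to Grik2 were the bicarbonate transporter gene Slc4a7 (r = 0.985), the heme-binding protein gene Hebp1 (0.966) and Kbtbd11 (0.965). Of these Kbtbd11 was itself called, with a log2 fold change of 0.61 and an edgeR adjusted p of 0.0478, while Slc4a7 (0.45) and Hebp1 (0.48) were not. Neto2 had the receptor gene Acvr1 (0.974) and the potassium channel modifiers Kcns1 (0.971) and Kcng1 (0.971) beside it, and Neto1 had 1700054N08Rik (0.975), the junctophilin gene Jph4 (0.972) and Rnf150 (0.969). Grik1 went with the fibrillin gene Fbn1 (0.988) and with Gabbr1 (0.971), a subunit of the GABA-B receptor. The nearest genes were Thbs3 (0.98), 2310011J03Rik (0.969) and Igsf9 (0.962) for Grik3. They were Vasn (0.982), AI464131 (0.978) and Tmem120b (0.976) for Grik4, and 2410004P03Rik (0.97), Itm2c (0.969) and C2cd2l (0.968) for Grik5. The r of these same pairs lay between 0.927 and 0.986 over the 7 libraries other than control replicate 5. No gene is among the nearest of more than 1 kainate receptor gene, and with 8 libraries and this many genes searched, values of r this high are the top of a long ranking and a description only.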

How the data were processed

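The authors deposited 1 table of raw counts, whole numbers without normalization, with an entry for each of 24488 RefSeq transcripts and a column for each of 8 TRAP libraries. The submitters' processing notes name the build mm10 and DESeq2. The study's methods describe Salmon and tximport, and the tool that made this table is not given in the sources used here. Each gene was taken as its entry with the highest total. CPM and tests came from edgeR 4.0.16 (R 4.3.3) with TMM factors and its quasi-likelihood test over all 18939 genes, Benjamini-Hochberg adjusted, with condition as the only term, since the study reports its analysis without sex. DESeq2 1.42.0, limma-voom (limma 3.58.1), other scalings and filters, sex or marker means in the model and leaving out each library were alternatives. The interaction without control replicate 5 was added after the data were seen, as were the levels, shares, ratios, list counts, marker means and correlations without it. Exact permutation tests, two-sided over all 70 arrangements, used log2 of CPM plus 0.5.

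Marker means are mean log2 CPM with a prior count of 2. The 7 genes and all lists were chosen with earlier results of these data known. Named genes were the 7 members, 9 partners set by name, other partners passing the test, and the 3 genes nearest each member, of which 1 is not reported here. Park2, Prkca, Ppp3ca, Gria1, Gria4, Grin2a and Grin2d were named after their values were seen. Transcript and coding lengths came from GENCODE M21 (GRCm38), matched by RefSeq identifier, and coordinates from RefSeq on GRCm38.p6. The coding-length order and the longer Grik2 model were added after the data were seen. Counts ran from 31151106 to 47582947 per library, and no batch is given. By the labels each library is its own pool of mice. Figures were drawn with matplotlib 3.10.9.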

Additional observations from a re-analysis of the deposited data

Results flagged for a closer look

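One value stood apart from its group. Grik1 was at 19.3 CPM in morphine replicate 8, while the 3 other morphine libraries were at 13.7, 13.7 and 14.4 CPM. The gap to the nearest library, divided by the range of the group, was 0.865, above Dixon's 95% critical value for 4 samples. In all, 16 groups were examined this way, and chance marks about 1 in 20. Without this library the log2 fold change of Grik1 was 0.11.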

How the results depend on the processing

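The log2 fold change of Grik2 stayed above 0 in all 18 alternatives (0.40 to 0.58), with an unadjusted p under 0.05 in each, and its adjusted p passed in 4: RLE factors, DESeq2, sex in the model and the fit without morphine replicate 3. It did not pass with upper-quartile factors (0.53), filterByExpr (0.54), at least 10 counts per library (0.56), limma-voom (0.56), the telencephalic (0.40) or choroid plexus (0.51) mean as a term, or the sum over a gene's entries (0.55). Leaving out 1 library gave 0.50 to 0.58. The count of kainate receptor genes called was 1 with RLE factors or sex, 2 by DESeq2 (Neto2 at 0.49), and 0 in the other fits named. Leaving out 1 library gave 0 to 1. Grik3 turned to 0.04 without control replicate 6 and 0.12 without morphine replicate 3 (-0.16 to 0.12 with 1 library left out, and down to -0.56 over all alternatives, with the telencephalic mean). Grik5 turned to -0.03 and -0.05 with the telencephalic and choroid plexus means. All genes called, 37 in edgeR with morphine against control (31 higher), became 14 with filterByExpr (11 higher), 15 with at least 10 counts (12 higher), 498 by DESeq2 (322 higher), 23 by limma-voom (20 higher), 110 with sex (95 higher), 1 and 0 with the telencephalic and choroid plexus means (1392 and 639 at an unadjusted p under 0.05) and 22 with the sum. Leaving out 1 library gave 0 to 77. Genes called between the sexes, 1 in edgeR, were 0 with filterByExpr (495 at an unadjusted p under 0.05), 26 by DESeq2 and 0 to 5 with 1 library left out. For the interaction, edgeR's 0 became 4 by DESeq2. The cause of these shifts was not tested. Fewer samples are part of every fit that leaves out a library. No paired analysis was possible because the groups share no replicate numbers.

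With 4 libraries per group, an adjusted p close to 0.05 moves across the threshold with small changes of the fit. Lengths of the gene models limit the order of the genes, and counting error alone is 4.94% at the lowest count of Grik4 (410).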
